A study of Mus musculus with 15 samples.

Results

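The proteasome genes of the mouse kidney were taken as the genes of the deposited table whose identifier belongs, in the GRCm38 annotation, to a protein-coding gene named Psma to Psmg with a number. This rule found 50 of the 54532 genes. Psmc3ip matches the letters only, since it is a meiotic recombination factor, and it was kept apart, which left 49 genes. They were 7 alpha subunits of the core and the testis form Psma8, 7 constitutive beta subunits, 3 immunoproteasome beta subunits, the thymus form Psmb11, 6 ATPases and 11 other subunits of the regulatory particle, 5 activators, and 8 assembly chaperones or inhibitors.

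Kidney RNA was sequenced from 15 male C57BL/6 mice that were 8 weeks old at the start, 5 in each of 3 groups. Control mice (C) ate normal chow, model mice (M) ate chow with 0.25% adenine for 4 weeks and then standard chow, and the treated mice (AA) had the same adenine course with asiatic acid, a plant triterpenoid, at 30 mg/kg by daily gavage. C and M mice were gavaged with the vehicle, and kidneys were taken after 8 weeks. No group carried a transgene or a deletion, each library came from 1 kidney of a separate mouse, an adenine diet is a chemical model of tubule injury in young mice, and no group received asiatic acid without adenine. Values are FPKM, fragments per kilobase of gene length scaled by a total for each library, so levels of different genes can be compared per length, and lists of 5 values follow the mouse numbers 1 to 5.

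The proteasome is the barrel-shaped protease that degrades proteins tagged with ubiquitin. Its 20S core is built from rings of alpha subunits, which gate the entrance, and rings of beta subunits, of which Psmb5, Psmb6 and Psmb7 carry the cutting sites. The 19S regulatory particle caps the core, its ATPases (Psmc genes) unfold substrates, and its other subunits (Psmd genes) bind ubiquitin and remove it. Interferon-gamma replaces the cutting subunits by Psmb8, Psmb9 and Psmb10, the immunoproteasome, and raises the activator PA28, made of Psme1 and Psme2, which together favour peptides for antigen presentation. The transcription factors Nfe2l1 (Nrf1) for the constitutive genes, and Irf1 for the immunoproteasome genes, are known regulators. In kidney the constitutive form prevails in tubule cells, and leukocytes are rich in the immunoproteasome.

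Promoter windows of RefSeq (GRCm38.p6, 250 bases before to 50 after the start site) were found for 41 of the 49 genes, in 44 windows, and the 200 bases before the start site of 5 genes are given 5′ to 3′ because the results turn on the immunoproteasome subunits Psmb8, Psmb9 and Psmb10 and on Psmb3 and Psmd4, which were low in the AA kidneys. Capitals mark matches to GAAANNGAA (the type bound by interferon regulatory factors), TTCNNNGAA (the type bound by STAT factors) or TGANNNNGC (the type bound by Nrf and Maf factors), searched on both strands. The windows lie at chr17:34197995-34198194 (plus strand, Psmb8), chr17:34187331-34187530 (minus, Psmb9), chr8:105938393-105938592 (minus, Psmb10), chr11:97703234-97703433 (plus, Psmb3) and chr3:95042615-95042814 (minus, Psmd4).
Psmb8: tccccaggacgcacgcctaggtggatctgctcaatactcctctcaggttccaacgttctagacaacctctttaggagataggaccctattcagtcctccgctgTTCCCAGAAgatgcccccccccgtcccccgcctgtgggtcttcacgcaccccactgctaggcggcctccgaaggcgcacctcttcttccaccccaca
Psmb9: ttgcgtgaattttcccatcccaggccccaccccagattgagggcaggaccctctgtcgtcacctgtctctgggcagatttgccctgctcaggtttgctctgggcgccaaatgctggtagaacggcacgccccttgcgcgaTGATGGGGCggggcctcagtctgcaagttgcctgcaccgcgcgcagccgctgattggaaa
Psmb10: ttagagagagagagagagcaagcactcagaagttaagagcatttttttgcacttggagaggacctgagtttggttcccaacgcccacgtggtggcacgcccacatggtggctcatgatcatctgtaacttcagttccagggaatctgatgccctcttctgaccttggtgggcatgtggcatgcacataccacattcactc
Psmb3: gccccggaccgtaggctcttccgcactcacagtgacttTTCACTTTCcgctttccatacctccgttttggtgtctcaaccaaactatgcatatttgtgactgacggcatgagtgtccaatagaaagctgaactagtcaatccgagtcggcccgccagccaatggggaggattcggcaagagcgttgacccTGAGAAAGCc
Psmd4: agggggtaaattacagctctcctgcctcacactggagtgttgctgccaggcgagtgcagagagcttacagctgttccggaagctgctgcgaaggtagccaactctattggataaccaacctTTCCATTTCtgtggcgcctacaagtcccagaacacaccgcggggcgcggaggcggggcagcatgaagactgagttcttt

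The capitals are a STAT type match in Psmb8, an Nrf and Maf type match in Psmb9, an IRF type match followed by an Nrf and Maf type match in Psmb3, and an IRF type match in Psmd4, and the stretch of Psmb10 holds none of these letters. Over the 44 windows, 15.9% held an IRF type match against 8.56% of the 32851 windows in the whole table, 6.82% held a STAT type match against 8.3%, and 56.8% held an Nrf and Maf type match against 41.3%. These shares describe letters in the windows, a short pattern occurs often by its length alone, and binding was not measured.

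The libraries held 13647100 to 28885600 fragments on genes (recovered from the steps of the FPKM values), of which 53.0% to 62.5% were mitochondrial in C, 64.0% to 86.8% in M and 69.2% to 87.2% in AA. Every M library and every AA library thus lay above every C library in this share, and its part in the differences of M and of AA from C was not tested. The totals by which the FPKM were scaled, recovered in the same way, did not follow the fragments on genes. The total was 66436538 in C3 with 28885553 fragments, and 9018222 in AA2 with 17417077 fragments. Over all libraries the totals were 3.19 to 5.03 times the fragments outside mitochondria, and the part of this scaling in the results was not tested. M1, M2 and M3 stood apart from all other libraries, with 10068 to 12222 genes above 0 against 18695 to 25460 elsewhere, and with 4.04% to 4.43% of their detected genes at 1 to 5 fragments against 12.2% and 13.5% in M4 and M5. Family medians that rest on the M group, and some single proteasome genes that passed or were lost in part of it, are therefore also given with M4 and M5 only or with M1 to M3 only. Kidney markers were present: the 10 proximal tubule markers summed to 3272 to 13544 FPKM in C, to 137 to 649 in M and to 243 to 645 in AA, while the 12 leukocyte markers summed to 17.8 to 62.0 in C, to 43.2 to 149.0 in M and to 36.4 to 65.5 in AA. Of the 4 muscle and liver markers, which kidney should lack, Acta1 reached 18.5 FPKM in M3 and 6.73 in M2, Ckm reached 4.37 in M3, and Alb and Apoa1 stayed at or below 2.56. In bulk tissue, fewer cells of a type and less RNA per cell cannot be told apart, and the part of these shifts in cell makeup in the results below was not tested.

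In control kidneys the constitutive proteasome was transcribed throughout. Of the 49 genes, 44 were above 0 in all 15 libraries, and the median gene had a mean of 6.00 FPKM in C. The highest means in C belonged to the ATPase Psmc5 with 32.2 ± 4.98 FPKM (SD, n = 5) and to the alpha subunit Psma4 with 32.1 ± 16.4, and the lowest of the core subunits was Psmb7 with 1.63 ± 0.421. Among the immunoproteasome subunits Psmb10 was highest with 5.97 ± 1.48, followed by Psmb8 with 2.34 ± 1.21 and Psmb9 with 1.32 ± 0.73, and the spreads of Psmb8 and Psmb9 overlapped. Psma8 was listed above 0 in 5 libraries and never above 0.294 FPKM, and Psmb11 in 9 libraries and never above 0.444, so the testis and thymus forms were near absent. The median SD of log2(FPKM + 1) over the 49 genes was 0.31 in C, 0.52 in M and 0.37 in AA, and 40 of the 49 genes spread more in M than in C.

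The mean of log2(FPKM + 1) over the 49 genes summarises the set in each library and was used as a description, with no test. It lay between 2.51 and 2.72 in the 5 C kidneys, between 2.50 and 2.70 in the 5 M kidneys and between 2.12 and 2.41 in the 5 AA kidneys. Thus the ranges of C and M nearly coincided, and every AA kidney lay below every kidney of both other groups. The regulatory particle ATPases showed 3.48 to 3.89 in C, 2.94 to 3.70 in M and 2.74 to 3.10 in AA. The core alpha subunits showed 3.20 to 3.34 in C and 2.63 to 3.03 in AA, without overlap, and the M kidneys split, with M1 to M3 at 3.24 to 3.84 and M4 and M5 at 2.75 and 2.91. The immunoproteasome subunits overlapped between all groups, at 1.44 to 2.40 in C, 1.47 to 3.11 in M and 1.38 to 2.07 in AA, with M4 and M5 at 2.63 and 3.11. On the TPM scale, which shares each library's total with its mitochondrial genes, the same mean was 0.87 lower in M than in C and 1.30 lower in AA than in C (against 0.02 and 0.38 lower on the FPKM scale).

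**Figure D1:**
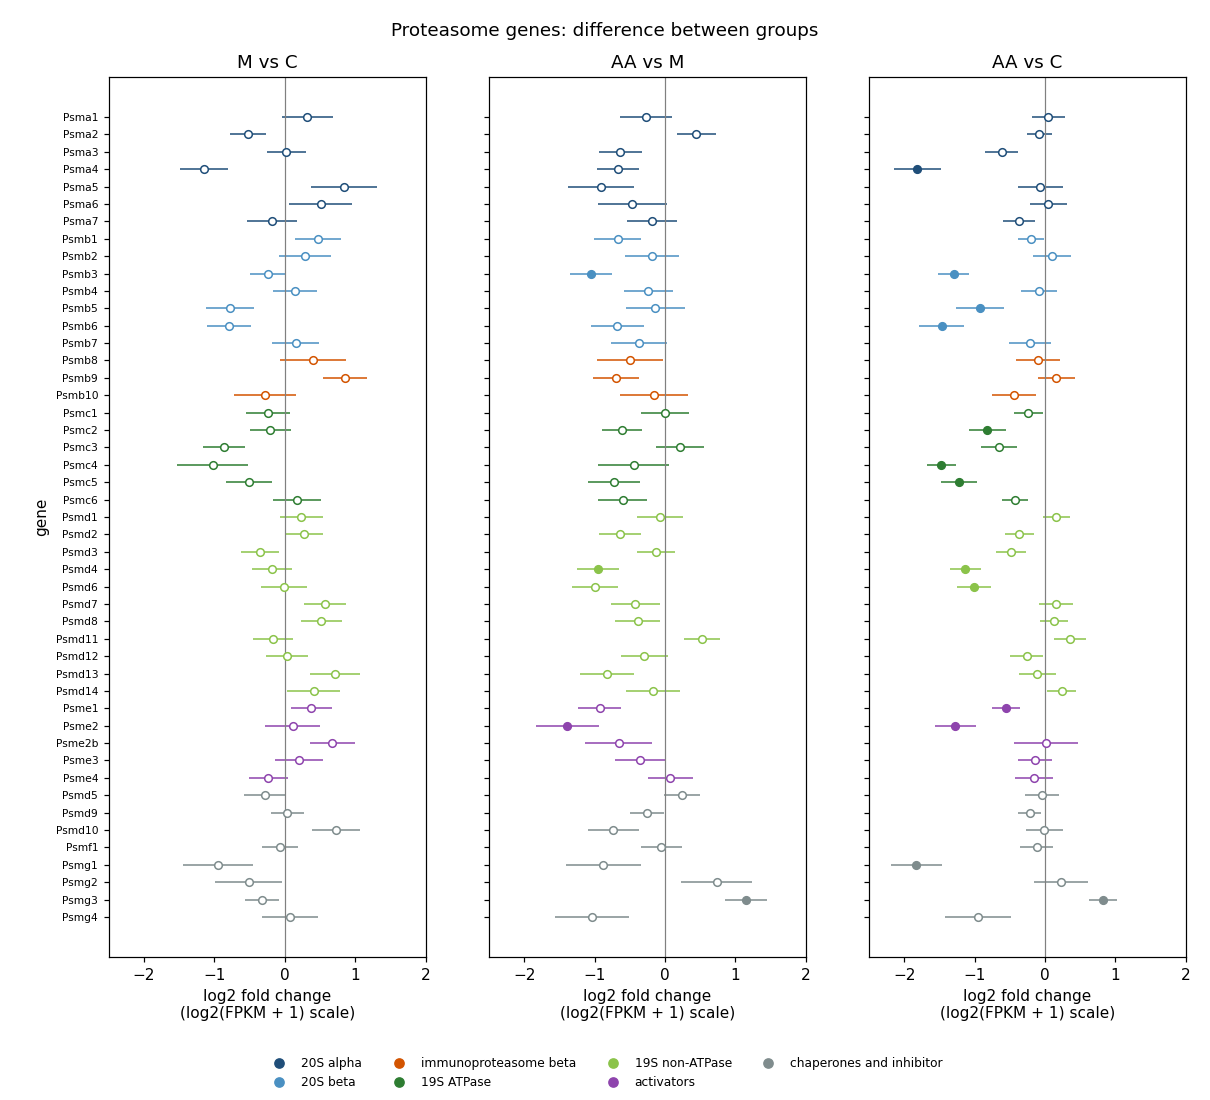
Log2 fold change on the log2(FPKM + 1) scale (x axis) of 47 proteasome genes (y axis, grouped by colour into families) in the 3 comparisons, with SE as bars and filled points for an adjusted p of at most 0.05. No point is filled for M vs C, 4 are filled for AA vs M, and of the 13 filled for AA vs C all but Psmg3 lie to the left of 0.

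Whether the adenine model changed the proteasome was asked by comparing M with C. No proteasome gene passed the test: with limma on log2(FPKM + 1), 0 of 47 tested genes had an adjusted p of at most 0.05 with a fold of at least 2, where 1.38% of all 21153 genes did, and 0 of 47 had an adjusted p of at most 0.05 at any fold, where 1.47% of all genes did. At an unadjusted p under 0.05 there were 5 of 47 (10.6%; 16.5% of all genes), namely Psma4, Psmb5, Psmb6 and Psmc3 with lower and Psmb9 with higher values in M. The median log2 fold change was 0.04 over the proteasome genes and -0.12 over all genes, with 25 proteasome genes above 0 and 22 below. With limma voom on the recovered fragments the count was also 0, and on TPM, where the median of all genes moved to -0.58, 5 genes were called lower in M (Psma2, Psma4, Psmb5, Psmb6 and Psmc3), which is 10.6% against 7.46% of all genes.

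Psma4 stood at 21.2, 47.3, 19.9, 19.5 and 52.5 FPKM in C1 to C5, at 13.6, 11.5, 10.3, 12.3 and 15.7 in M1 to M5 and at 4.74, 8.23, 8.18, 11 and 6.86 in AA1 to AA5. It is an alpha subunit of the core ring. All 5 M kidneys lay below all 5 C kidneys, the only proteasome gene tested here with such a gap between M and C, where 3.67% of all genes were lower in M without overlap, but the difference missed the threshold (log2 fold change -1.15, SE 0.34, adjusted p = 0.13). C2 and C5 were the highest C kidneys and the other 3 lay at 19.5 to 21.2 FPKM. Of the 31-base words of Psma4, 21.8% also occur in other genes, and the antisense gene AY074887 overlaps its exons.

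Psmb6 stood at 15.5, 26.6, 14.6, 25.3 and 17.3 FPKM in C1 to C5, at 5.94, 10.7, 15.8, 12.1 and 11.3 in M1 to M5 and at 5.3, 3.08, 4.95, 10.4 and 11.1 in AA1 to AA5. Psmb6 carries the caspase-like cutting site. M overlapped C only through M3 (log2 fold change -0.79, SE 0.31, adjusted p = 0.23). Psmc3 stood at 11.6, 15.4, 10.3, 15 and 16.8 FPKM in C1 to C5, at 4.36, 7.31, 5.14, 10.4 and 9.59 in M1 to M5 and at 8.37, 5.95, 5.98, 9.17 and 14.1 in AA1 to AA5. Psmc3 is an ATPase of the 19S base. Only M4 of the M kidneys reached the range of C, just above the lowest C kidney (log2 fold change -0.86, SE 0.30, adjusted p = 0.18), and with M1 to M3 alone the difference passed (log2 fold change -1.17, adjusted p = 0.014), whereas with M4 and M5 alone, a fit in which 0 of all 20868 genes were called, it did not (-0.41, adjusted p = 0.66).

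By family, the log2 fold changes between M and C ran from -1.15 to 0.84 over the 7 core alpha subunits (median 0.02), from -0.79 to 0.47 over the 7 core beta subunits (0.15), from -1.03 to 0.18 over the 6 ATPases (-0.37) and from -0.35 to 0.71 over the 11 other subunits of the regulatory particle (0.23). Activators ran from -0.23 to 0.67 (median 0.20) and chaperones and inhibitors from -0.95 to 0.72 (-0.18). With M4 and M5 only and with M1 to M3 only, the medians were -0.37 and -0.07 for the core alpha subunits, -0.34 and 0.48 for the core beta subunits, -0.07 and -0.64 for the ATPases and -0.03 and 0.43 for the other subunits of the particle. For the immunoproteasome subunits they were 1.04 and -0.28, for the activators 0.59 and 0.12, and for the chaperones and inhibitors -0.06 and -0.17. The core beta subunits, the other subunits of the particle and the immunoproteasome subunits thus had medians of opposite sign in both parts of the M group. Psma8 and Psmb11 were above 0 in too few libraries to be tested here, and Psma8 in the other comparisons too.

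The M kidneys split in part of the genes. With M1 to M3 alone, 7 of 47 genes were called against C (14.9%; 19.9% of all 17103 genes), Psma4, Psmc3 and Psmc4 lower and Psma5, Psma6, Psmd10 and Psmd13 higher, and with M4 and M5 alone 0 proteasome genes and 0 of all 20868 genes were called. In 14 of the 49 genes (28.6%) all of M1 to M3 lay above both M4 and M5, against 6.6% of all genes, and in 7 (14.3%) all of M1 to M3 lay below both, against 46.8% of all genes. The 14 were Psma1, Psma2, Psma5, Psma6, Psmb1 and Psmb4 of the core, Psmc2, Psmd2, Psmd7, Psmd8, Psmd13 and Psmd14 of the regulatory particle, the chaperone Psmd10 and the activator Psme3, and the 7 were Psmb8, Psmb10, Psmc3, Psmc4, Psmc5, Psme4 and Psmg3. A gene at 0 in M1 to M3 and above 0 in M4 and M5 counts as below. M1 to M3 listed 10068 to 12222 genes above 0, against 23040 and 25460 in M4 and M5. Since 44 of the 49 genes were above 0 in all 15 libraries, the shares of all genes are not a like background for them.

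Psmd13 stood at 1.49, 1.4, 1.99, 3.02 and 2.36 FPKM in C1 to C5, at 4.08, 5.5, 8.74, 1.78 and 2.2 in M1 to M5 and at 1.22, 1.31, 1.05, 3.28 and 2.68 in AA1 to AA5. Psmd13, a lid subunit, had the highest values in M1 to M3, while M4 and M5 lay inside the range of C (log2 fold change 0.71, SE 0.36, adjusted p = 0.34). Psmd10 stood at 2.69, 1.46, 4.1, 2.25 and 2.77 FPKM in C1 to C5, at 6.75, 8.08, 6.22, 2.6 and 2.79 in M1 to M5 and at 1.4, 2.79, 4.49, 2.18 and 2.45 in AA1 to AA5. Psmd10 (gankyrin) is a chaperone of the 19S base. Again M1 to M3 lay above every C kidney and M4 and M5 did not (log2 fold change 0.72, SE 0.34, adjusted p = 0.31).

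The immunoproteasome and its activator were examined gene by gene in the same comparison. Psmb8 stood at 1.72, 1.86, 0.968, 3.97 and 3.16 FPKM in C1 to C5, at 3.43, 0.77, 1.26, 6.54 and 8.3 in M1 to M5 and at 0.751, 1.5, 3.9, 2.22 and 2.25 in AA1 to AA5. Psmb8 takes the place of Psmb5. M4 and M5 were the highest of all 15 kidneys, and M1 to M3 were within or below the range of C (log2 fold change 0.40, SE 0.47, adjusted p = 0.69). Psmb9 stood at 1.21, 0.564, 1.07, 2.54 and 1.22 FPKM in C1 to C5, at 1.39, 3.03, 4.31, 2.9 and 4.42 in M1 to M5 and at 1.73, 2.73, 1.26, 0.704 and 1.51 in AA1 to AA5. Psmb9 takes the place of Psmb6. Of the 5 M kidneys 4 lay above every C kidney, and M1 lay inside their range (log2 fold change 0.85, SE 0.32, adjusted p = 0.21). Psmb8 and Psmb9 lie near each other on chromosome 17, and the exons of Psmb9 overlap those of Tap1 on the opposite strand, whose reads cannot be told apart without knowing how strand was counted.

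Psmb10 stood at 7.03, 4.93, 3.93, 7.42 and 6.54 FPKM in C1 to C5, at 1.01, 5.67, 2.98, 7.1 and 11.8 in M1 to M5 and at 2.67, 6.89, 4.77, 6.27 and 1.64 in AA1 to AA5. Psmb10 takes the place of Psmb7. The M kidneys ran from the lowest value of all 15, in M1, to the highest, in M5 (log2 fold change -0.29, SE 0.44, adjusted p = 0.76). Psme1 stood at 11.8, 12.7, 10.5, 16.2 and 11.5 FPKM in C1 to C5, at 11.5, 11.4, 19.2, 18.7 and 24.8 in M1 to M5 and at 7.78, 7.48, 10.5, 7.81 and 7.37 in AA1 to AA5. Psme1 is the alpha chain of PA28. M3, M4 and M5 lay above every C kidney, and M1 and M2 within the range of C (log2 fold change 0.37, SE 0.29, adjusted p = 0.55). Psme2 stood at 7.2, 6.47, 9.06, 7.2 and 6.76 FPKM in C1 to C5, at 3.76, 9.11, 4.38, 8.89 and 21.3 in M1 to M5 and at 0.833, 3.02, 2.53, 1.93 and 5.17 in AA1 to AA5. Psme2 is the beta chain of PA28, and 33.5% of its 31-base words also occur in its near copy Psme2b. M5 was far above all other kidneys and M1 and M3 lay below every C kidney (log2 fold change 0.11, SE 0.39, adjusted p = 0.9). Psme2b stood at 8.11, 7.76, 8.45, 7.2 and 3.5 FPKM in C1 to C5, at 14.5, 16.2, 6.86, 10.1 and 11.3 in M1 to M5 and at 1.05, 13.0, 10.5, 8.13 and 8.68 in AA1 to AA5. Psme2b shares 78.4% of its words with other genes, so its values and those of Psme2 are uncertain. Its M values overlapped those of C through M3 (log2 fold change 0.67, SE 0.32, adjusted p = 0.31).

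**Figure D2:**
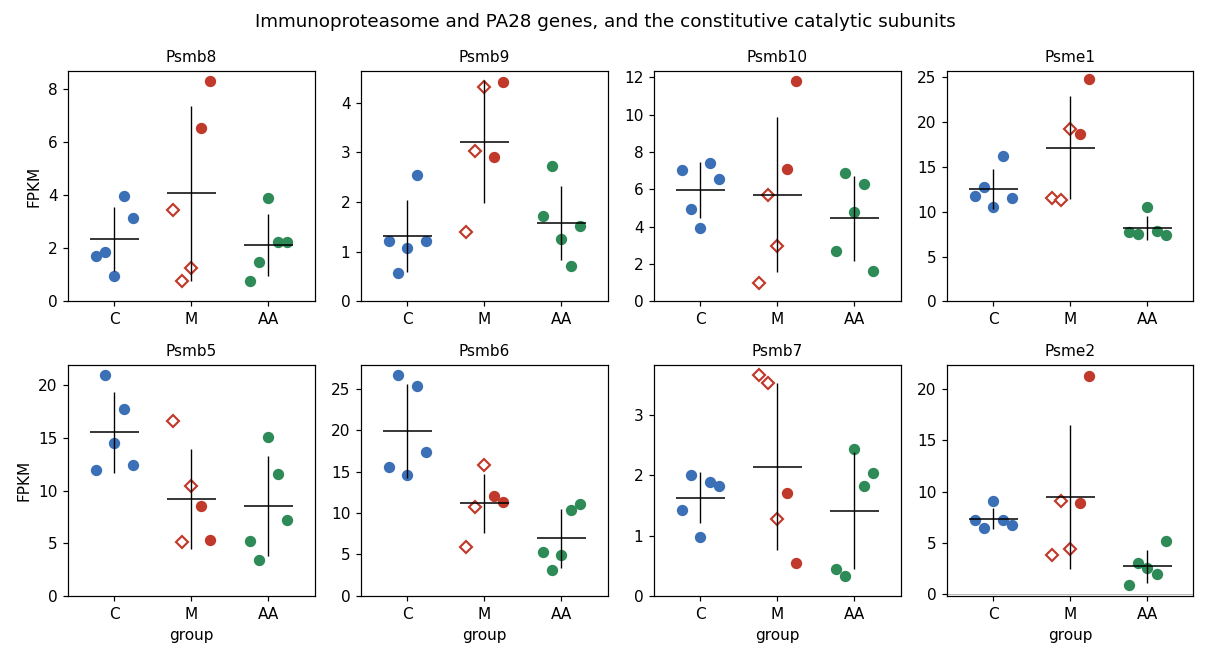
FPKM (y axis) of the 3 immunoproteasome subunits, both PA28 chains and the constitutive subunits Psmb5, Psmb6 and Psmb7 in the 15 kidneys by group (x axis), with the mean as a line and the SD as a bar, and with M1 to M3 as open diamonds. M4 and M5 hold the highest Psmb8 values, 6.54 and 8.30 FPKM, and all 5 AA kidneys lie below all M kidneys for Psme1.

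The cutting subunits that the immunoproteasome genes replace did not pass either. Psmb5 stood at 11.9, 21, 14.6, 17.7 and 12.4 FPKM in C1 to C5, at 16.6, 5.11, 10.5, 8.57 and 5.27 in M1 to M5 and at 5.23, 3.45, 15, 11.6 and 7.18 in AA1 to AA5. M1 lay in the range of C and the other 4 M kidneys lay below every C kidney (log2 fold change -0.78, SE 0.34, adjusted p = 0.27), and 71.7% of the words of Psmb5 occur in other genes, 59.8% in Gm3375 alone. Psmb7 stood at 1.43, 2.01, 0.981, 1.89 and 1.83 FPKM in C1 to C5, at 3.65, 3.52, 1.27, 1.7 and 0.553 in M1 to M5 and at 0.451, 0.324, 2.43, 1.82 and 2.03 in AA1 to AA5. Psmb7 carries the trypsin-like site. M1 and M2 were the highest kidneys and M5 lay below every C kidney (log2 fold change 0.15, SE 0.34, adjusted p = 0.83).

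A ratio of both genes of a pair within a library does not depend on how libraries were scaled, and it is given as a description with no test. Per 100 FPKM of Psmb6, Psmb9 stood at 2.12 to 10.01 FPKM in C, at 23.4 to 39.1 in M and at 6.76 to 88.6 in AA. All 5 M kidneys thus lay above all 5 C kidneys, M1 to M3 at 23.4 to 28.4 as well as M4 and M5 at 24.0 and 39.1, and the AA kidneys spanned both ranges. Per 100 FPKM of Psmb5, Psmb8 stood at 6.65 to 25.4 in C, at 12.1 to 157.4 in M and at 14.4 to 43.4 in AA, and M4 and M5, at 76.3 and 157.4, lay above every other kidney. Psmb10 per 100 FPKM of Psmb7 stood at 246 to 492 in C, at 27.7 to 2136 in M and at 80.6 to 2127 in AA, with the groups overlapping.

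**Figure D3:**
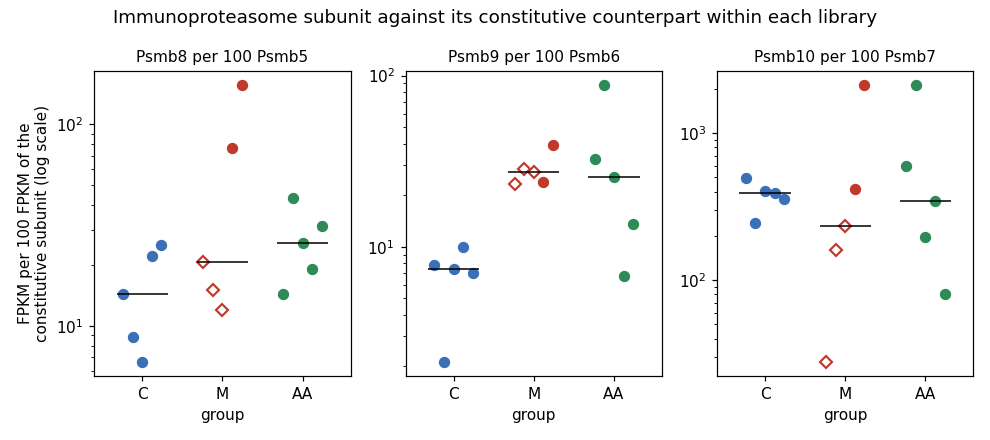
FPKM of an immunoproteasome subunit per 100 FPKM of its constitutive counterpart (y axis, log scale) in each library by group (x axis), with the median as a line and M1 to M3 as open diamonds. For Psmb9 against Psmb6 the M kidneys lie at 23.4 to 39.1 and the C kidneys at 2.12 to 10.01.

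The other genes of the pathway were compared as well. Between M and C no gene passed among the 12 receptors and bound factors, the 5 assembly and transcription genes found and the 8 antigen processing genes. Nfe2l1 stood at 11.7, 7.3, 10.3, 9.38 and 8.62 FPKM in C, at 6.49, 2.62, 2.57, 9.23 and 6.82 in M and at 6.53, 7.42, 11.6, 10.1 and 13.7 in AA (log2 fold change -0.79, SE 0.34, adjusted p = 0.27 for M vs C), and M2 and M3 were lowest. Tap1 stood at 0.836, 1.79, 0.665, 1.69 and 1.44 FPKM in C1 to C5, at 0, 0.35, 0.323, 2.51 and 4.82 in M1 to M5 and at 0, 0.405, 0.377, 0.248 and 0.567 in AA1 to AA5. Tap1 carries peptides made by the proteasome into the endoplasmic reticulum. It was highest in M4 and M5 and below every C kidney in M1 to M3, whereas B2m, the light chain of the class I molecules, stood at 430, 354 and 451 FPKM in M1 to M3 and at 199 and 78.3 in M4 and M5. Among the leukocyte markers 1 of 12, Fcer1g, passed as higher in M, and 7 of 10 proximal tubule markers passed as lower.

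The effect of asiatic acid on adenine-fed mice was read from AA against M. Few proteasome genes passed. Of 48 tested genes, 1 was called higher in AA, the assembly chaperone Psmg3 (2.08%; 11.7% of all 19798 genes), and 2 were called lower, the core subunit Psmb3 and the PA28 chain Psme2 (4.17%; 1.07% of all genes). At an adjusted p of at most 0.05 alone, the ubiquitin receptor Psmd4 joined as the third lower gene (6.25%; 1.34% of all genes). The median log2 fold change was -0.40 over the proteasome genes against 0.17 over all genes, and 39 of 48 were below 0. Over the proteasome genes the median was -0.10 with M4 and M5 only and -0.57 with M1 to M3 only, against 0.12 and 0.29 over all genes. These calls depended on the libraries and the scale: 15, 12 and 18 of the 24 alternatives called Psmb3, Psme2 and Psmg3, TPM called 0 (2.10% of all genes higher and 0.0354% lower), and centring each library on its median called 11, all lower (6.13% of all genes higher and 8.08% lower).

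Over the families, AA against M gave median log2 fold changes of -0.46 for the core alpha subunits, -0.37 for the core beta subunits, -0.52 for the ATPases, -0.39 for the other subunits of the regulatory particle, -0.66 for the activators and -0.15 for the chaperones and inhibitors. With M4 and M5 only, the medians were 0.19, 0.13, -0.47, -0.03, -0.58 and -0.04 in the same order, so those of both core families changed sign. With M1 to M3 only, they were -0.57, -0.60, -0.09, -0.75, -0.68 and -0.22. For the 3 immunoproteasome subunits the median was -0.50, and it was -1.02 with M4 and M5 only and 0.18 with M1 to M3 only. Its sign thus differed between both parts of the M group.

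Psmb3 stood at 9.52, 11.8, 11.3, 13.8 and 10.8 FPKM in C1 to C5, at 10.2, 6.62, 11.8, 10.2 and 9.12 in M1 to M5 and at 2.75, 3.09, 4.61, 5.72 and 4.56 in AA1 to AA5. Psmb3 is a structural beta subunit of the core. All 5 AA kidneys lay below all other kidneys, and AA was lower than M (log2 fold change -1.05, SE 0.30, adjusted p = 0.026), also at about the same size with M4 and M5 alone (-1.08, adjusted p = 0.065) and with M1 to M3 alone (-1.03, adjusted p = 0.027). With limma voom on the recovered fragments Psmb3 did not pass (-1.16, adjusted p = 0.057). Of the 31-base words of Psmb3, 21.7% also occur in other genes, 16.8% in AC114990.1 alone. Psmd4 stood at 11.2, 16.2, 9.64, 17.4 and 15 FPKM in C1 to C5, at 10.005, 15.3, 7.87, 12.5 and 15.1 in M1 to M5 and at 4.76, 5.29, 7.02, 4.88 and 6.55 in AA1 to AA5. Psmd4 binds ubiquitin chains for the 19S particle. Every AA kidney lay below every C and M kidney (log2 fold change -0.95, SE 0.29, adjusted p = 0.04), and no 31-base word of Psmd4 occurs in another gene. The difference had a size of -1.15 with M4 and M5 alone (adjusted p = 0.038) and of -0.81 with M1 to M3 alone (adjusted p = 0.058).

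Of the PA28 chains, Psme2 was lower in AA than in M (log2 fold change -1.39, SE 0.45, adjusted p = 0.046), with AA5 at 5.17 FPKM reaching into the range of M through M1 at 3.76 and M3 at 4.38. It passed in 3 of the 10 fits that left out a kidney, Psmb3 in 6, Psmd4 in 2 and Psmg3 in 9. Psme1 fell short by a little (log2 fold change -0.93, SE 0.31, adjusted p = 0.052), although all 5 AA kidneys, at 7.37 to 10.5 FPKM, lay below all 5 M kidneys, at 11.4 to 24.8. With M4 and M5 alone both passed, at -2.12 for Psme2 and -1.31 for Psme1 (adjusted p = 0.025 for each), and with M1 to M3 alone neither did (adjusted p = 0.12 and 0.096).

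The immunoproteasome beta subunits did not pass in AA against M: Psmb8 had a log2 fold change -0.50, SE 0.47, adjusted p = 0.51, Psmb9 a log2 fold change -0.69, SE 0.33, adjusted p = 0.16 and Psmb10 a log2 fold change -0.16, SE 0.48, adjusted p = 0.86. With M4 and M5 alone Psmb8 was lower in AA (-1.50, adjusted p = 0.042), and with M1 to M3 alone its sign was the opposite (0.18, adjusted p = 0.78). Psmb9 passed as lower under quantile normalization (-1.03, adjusted p = 0.040) and with medians centred (-1.21, adjusted p = 0.024). Neither Psmb5, Psmb6 nor Psmb7 passed, with log2 fold changes of -0.14, -0.68 and -0.37.

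Psmg3 stood at 0.969, 0.8, 0.458, 0.633 and 0.341 FPKM in C1 to C5, at 0, 0, 0, 1.04 and 0.797 in M1 to M5 and at 1.52, 2.3, 1.45, 2.49 and 1.78 in AA1 to AA5. Psmg3 pairs with Psmg4 as a chaperone that starts the alpha ring. Every AA kidney lay above every C and M kidney, and AA was higher than M (log2 fold change 1.15, SE 0.30, adjusted p = 0.018) and higher than C (log2 fold change 0.83, SE 0.20, adjusted p = 0.0074). It rests on few fragments, 0 to 148 per library, and M1 to M3 are listed at 0, where few genes were detected at all. With M4 and M5 alone the difference from M was 0.59 (adjusted p = 0.23), and on TPM neither comparison passed (adjusted p = 0.18 against M and 0.43 against C).

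Groups that did not overlap were counted as a further description. AA lay wholly below M in 5 of 48 genes (10.4%; 1.31% of all genes), Psmb3, Psmc2, Psmd4, Psmd6 and Psme1, and wholly above M in 3 (6.25%; 11.9% of all genes), Psmb11, Psmd11 and Psmg3. Psmd6 stood at 4.6, 9.72, 6.28, 5.41 and 8.1 FPKM in C1 to C5, at 7.17, 5.26, 12.3, 3.81 and 6.46 in M1 to M5 and at 2.78, 1.58, 3.5, 3.3 and 3.15 in AA1 to AA5. Psmd6 is a lid subunit. M4 was the M kidney closest to AA, and the difference just missed the threshold (log2 fold change -0.99, SE 0.33, adjusted p = 0.052). Psmc2 stood at 2.67, 6.49, 3.65, 5.13 and 7.44 FPKM in C1 to C5, at 4.78, 4.22, 4.07, 3.96 and 3.25 in M1 to M5 and at 1.31, 2.73, 2.95, 2.91 and 1.91 in AA1 to AA5. Psmc2 is an ATPase of the base. Its AA values all lay below those of M, and C1 lay inside the AA range (log2 fold change -0.61, SE 0.28, adjusted p = 0.15).

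AA against C asked how the treated kidneys stood against normal ones, and more proteasome genes passed here than in the other comparisons. Of 48 tested genes, 9 were called lower in AA (18.8%; 9.61% of all 21898 genes) and 0 higher (10.2% of all genes). They were the core subunits Psma4, Psmb3 and Psmb6, the ATPases Psmc4 and Psmc5, the receptor Psmd4, the lid subunit Psmd6, the activator chain Psme2 and the chaperone Psmg1. At an adjusted p of at most 0.05 alone, 12 were lower (25.0%; 16.4% of all genes), with Psmb5, Psmc2 and Psme1 added, and Psmg3 alone was higher (2.08%; 19.5% of all genes). AA lay wholly below C in 11 genes (22.9%; 12.5% of all genes) and wholly above C in 1 (2.08%; 11.5% of all genes). These shares over all genes include many genes near 0 FPKM. In a fit of genes with a mean of at least 1 FPKM, the same 9 of 46 proteasome genes were called lower (19.6%). There 16.8% of all 12046 genes were called lower, so the shares lay close together, and 0 proteasome genes were called higher (18% of all genes).

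By family, genes lower in AA at an adjusted p of at most 0.05 were counted, a rule that 16.4% of all genes met. Of the 6 ATPases of the regulatory particle 3 passed as lower, namely Psmc2, Psmc4 and Psmc5. Of the 14 constitutive core subunits 4 did (Psma4, Psmb3, Psmb5 and Psmb6). Of the 11 other subunits of the particle 2 did (Psmd4 and Psmd6), a share close to that of all genes. The other subunits of the core and of the particle did not pass. All 6 ATPases had log2 fold changes below 0, with a median of -0.73. Over the 48 genes the median was -0.21 against 0.09 over all genes. On TPM, where the median of all genes was -0.39, 27 proteasome genes were called lower (56.2%; 27.0% of all genes).

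Psmc4 stood at 17.6, 26.4, 17.3, 25.5 and 22.4 FPKM in C1 to C5, at 1.67, 12.1, 9.7, 14.7 and 27.0 in M1 to M5 and at 9.2, 6.56, 6.59, 7.14 and 6.34 in AA1 to AA5. Psmc4 is an ATPase of the base. The AA kidneys lay close together and all below the lowest C kidney (log2 fold change -1.47, SE 0.21, adjusted p = 0.00054), while the M kidneys ran from 1.67 in M1 to 27.0 in M5, wider than any other group. Psmc5 stood at 30.2, 31.8, 25.4, 38.4 and 35.5 FPKM in C1 to C5, at 18.6, 18.8, 13.3, 26.3 and 42.9 in M1 to M5 and at 8.53, 9.94, 18.7, 18.2 and 13.0 in AA1 to AA5. Psmc5, another ATPase, was the highest of all proteasome genes in C. All 5 AA kidneys were below all 5 C kidneys (log2 fold change -1.23, SE 0.25, adjusted p = 0.0038), and M5, at 42.9, was above every C kidney. Neither gene shares a 31-base word with another gene.

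Psma4 and Psmb6 fell against C (log2 fold change -1.81, SE 0.33, adjusted p = 0.0021 for Psma4, log2 fold change -1.47, SE 0.32, adjusted p = 0.0052 for Psmb6), with the M kidneys between both groups in their means, at 12.7 ± 2.07 and 11.2 ± 3.52 FPKM (SD, n = 5) against 7.81 ± 2.3 and 6.96 ± 3.56 in AA. Psmb3 and Psmd4 fell as well (log2 fold change -1.30, SE 0.22, adjusted p = 0.0014 for Psmb3, log2 fold change -1.13, SE 0.22, adjusted p = 0.0029 for Psmd4), and there the M mean stayed near that of C, 9.58 ± 1.91 against 11.4 ± 1.58 for Psmb3 and 12.2 ± 3.23 against 13.9 ± 3.32 for Psmd4. Psmd6 (log2 fold change -1.01, SE 0.24, adjusted p = 0.008) and Psme2 (log2 fold change -1.28, SE 0.29, adjusted p = 0.0059) also lay below all C kidneys in all AA kidneys.

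Psmg1 stood at 5.31, 7, 4.77, 5.45 and 11.1 FPKM in C1 to C5, at 5.64, 0, 2.3, 4.16 and 6.39 in M1 to M5 and at 0, 0.66, 3.37, 1.63 and 1.11 in AA1 to AA5. Psmg1 pairs with Psmg2 as a chaperone of the alpha ring. AA was lower than C in all 5 kidneys (log2 fold change -1.83, SE 0.36, adjusted p = 0.0031), AA1 is listed at 0, and M2 is listed at 0 while M1 lay in the range of C. The 9 calls held in all 10 fits that left out a kidney as far as the adjusted p goes, and 8 of them, all but Psmd6, were called in every one of the 22 alternatives. Psmd6, whose log2 fold change lies at the threshold of 1 in size, was called in 17.

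**Figure D4:**
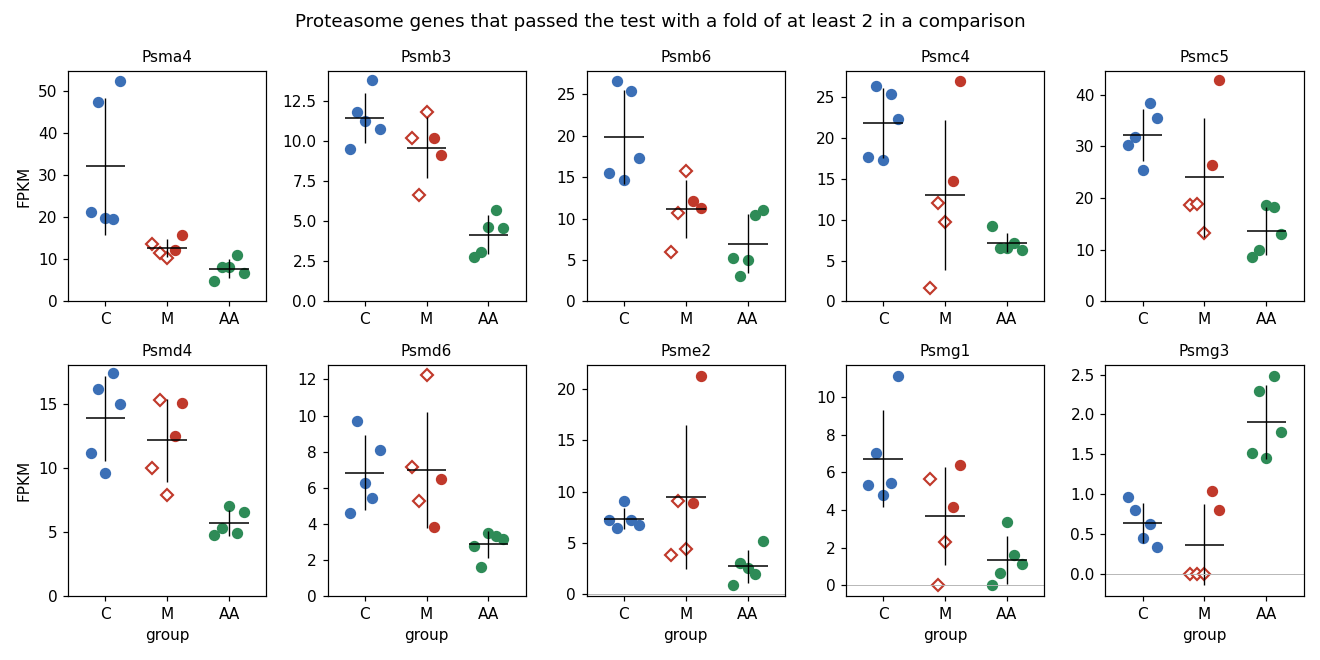
FPKM (y axis) in the 15 kidneys by group (x axis) of the 10 proteasome genes called in a comparison, with the mean as a line and the SD as a bar, and with M1 to M3 as open diamonds. In Psmb3, Psmd4 and Psmd6 all AA kidneys lie below all others, in Psmc4 the M kidneys range from 1.67 to 27.0, and in Psmg3 the AA kidneys, at 1.45 to 2.49, lie above all others.

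The immunoproteasome beta subunits did not pass between AA and C: Psmb8 had a log2 fold change -0.10, SE 0.32, adjusted p = 0.82, Psmb9 a log2 fold change 0.16, SE 0.27, adjusted p = 0.65 and Psmb10 a log2 fold change -0.44, SE 0.32, adjusted p = 0.28. Psme1 passed as lower at a smaller fold (log2 fold change -0.56, SE 0.20, adjusted p = 0.044), with AA3 at 10.5 FPKM just below the lowest C kidney. AA is shared by this comparison and AA against M, and C by this one and M against C, so their results are not independent of each other.

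Among the pathway genes, 3 of 12 receptors and bound factors, 2 of 5 assembly and transcription genes and 1 of 8 antigen processing genes passed as lower in AA than in C, and 0 of these genes passed as higher. At the same adjusted p of at most 0.05, 16.4% of all genes were lower and 19.5% were higher. Adrm1 stood at 4.19, 9.4, 4.83, 4.93 and 7.17 FPKM in C1 to C5, at 1.43, 2.19, 1.42, 3.76 and 5.06 in M1 to M5 and at 1.37, 0.796, 3.59, 2.05 and 1.76 in AA1 to AA5. Adrm1 is a ubiquitin receptor of the 19S particle (log2 fold change -1.31, SE 0.28, adjusted p = 0.0048).

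Interferon-gamma, the inducer of the immunoproteasome, was examined last. Ifng stood at 0.769, 0, 0.186, 0.433 and 0.715 FPKM in C1 to C5, at 0, 0, 0, 0.632 and 1.46 in M1 to M5 and at 1.7, 7.28, 1.08, 1.88 and 1.44 in AA1 to AA5. Ifng, which encodes it, passed as higher in AA than in C and in M (log2 fold change 1.20, SE 0.35, adjusted p = 0.019 for AA vs C, log2 fold change 1.27, SE 0.41, adjusted p = 0.045 for AA vs M), with AA2 far above the rest and M1 to M3 listed at 0. Few genes were detected in M1 to M3 at all, and M5, at 1.46 FPKM, lay above AA3 and AA5. The difference between AA and M thus leans on M1 to M3, and fits with part of the M group are not given for Ifng. Irf1 did not pass in any comparison. Of the leukocyte markers, the T cell gene Cd3e and the myeloid genes Tyrobp and Adgre1 passed as higher and Csf1r as lower in AA than in C, and Cd3e also as higher and Fcer1g as lower in AA than in M. Cd79a was at 0 in M1 to M3, and also in C1, C5, AA1, AA2 and AA4. Of the proximal tubule markers 9 of 10 passed as lower in AA than in C and 0 in either direction between AA and M. The part of these markers in the results was not tested.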

How the data were processed

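Kidney RNA of 15 mice (poly-A selected) was sequenced and the authors deposited a table of FPKM values, made with fastp, HISAT2 2.0.5 and featureCounts 1.5.0-p3 on mm10 per the labels and methods. The annotation release and the strand setting are not given in the sources used here. The authors tested counts with DESeq2, which FPKM do not allow, so log2(FPKM + 1) was tested with limma 3.58.1 (R 4.3.3, intensity trend) on the 10 libraries of each comparison, for genes above 0 in at least 5, with Benjamini-Hochberg adjustment over all genes tested. Calls needed an adjusted p no higher than 0.05 together with a 2-fold change in either direction. FPKM steps gave whole fragments for 97.6% to 99.6% of the low values (tolerance 0.1), and the depth, 13647059 to 28885553 fragments per library, comes from them. Values in every library are given for the immunoproteasome subunits, their counterparts, both PA28 chains, every gene called, and the gene of each family with the largest moderated t for M against C or for AA against M; among pathway genes, those called are named. The members and lists were chosen with earlier results of these data known. Code was tested on simulated data. Paaf1 was not matched to the table. TPM and other alternatives were tried. Some genes of the pathway lists are not reported here.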

Additional observations from a re-analysis of the deposited data

Results flagged for a closer look

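Of 63 groups of 5 kidneys checked over the named proteasome genes, 3 held a kidney whose gap to its nearest neighbour was more than 0.71 of the range of its group, and chance alone gives about 1 in 20 groups. Psme1 stood at 10.5 FPKM in AA3, the highest of the AA kidneys, with the other 4 at 7.37 to 7.81. Psme2b stood at 3.5 FPKM in C5, the lowest of the C kidneys, with the other 4 at 7.20 to 8.45. Psme2b also stood at 1.05 FPKM in AA1, the lowest of the AA kidneys, with the other 4 at 8.13 to 13.0. Psme2b shares most of its sequence with Psme2.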

How the results depend on the processing

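Of the values of single genes, 527 of 572 for AA vs C, 532 of 622 for AA vs M and 606 of 621 for M vs C kept their side of the threshold. Among these, 20, 15 and 49 changed sign without passing in either fit, and 0 values that passed in a fit had the opposite sign in the other. For M vs C the calls (0) became 5 on TPM and 7 with M1 to M3 only, the genes with an adjusted p of at most 0.05 (0) became 5 and 13, and the difference of the mean level (-0.02) became -0.87 on TPM, 0.19 with quantile normalization and 0.34 with library medians centred. For AA vs M the calls (3) became 6 with a pseudocount of 0.1, 0 on TPM, 7 with nuclear genes scaled alone, 6 with quantile normalization, 11 centred, 5 with M4 and M5 only and 8 with M1 to M3 only, and ranged from 1 to 3 when a kidney was left out. Genes with an adjusted p of at most 0.05 (4) became 0 on TPM, 7 nuclear, 7 quantile, 11 centred, 7 in a fit of all 15 libraries and 9 with M1 to M3 only, and ranged from 1 to 3 when a kidney was left out, with 1 without AA1 or AA2 and 2 without M3, M5 or AA4. The difference of the mean level (-0.36) became -0.55 nuclear, -0.59 quantile and -0.88 centred. For AA vs C the calls (9) became 27 and the genes with an adjusted p of at most 0.05 (13) became 28 on TPM, and the mean level (-0.38) became -1.30 on TPM, -0.55 nuclear and -0.54 centred. The cause of these shifts was not tested. Over all genes, AA vs M gave 2321 higher and 212 lower calls, 460 and 1196 with M4 and M5 only, and 1213 and 1600 centred.

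Mouse numbers do not pair the samples, since correlations between same-numbered kidneys ran from -0.13 to 0.22. With the replicate block, 2 genes (Psmg3 and Psme2) passed in AA vs M. limma voom on the recovered fragments was chosen after seeing the data. Low fragment numbers limit Psmg3 and Psmg1, and 5 kidneys a group limit the precision.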
